A study of Mus musculus with 64 samples.

Results

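The 10 Hoxc and Hoxd genes examined here were Hoxd9, Hoxd8, Hoxd4, Hoxd3 and Hoxd1 on chromosome 2 and Hoxc10, Hoxc9, Hoxc8, Hoxc6 and Hoxc4 on chromosome 15, out of 21910 protein-coding genes in the annotation used. The genes were given as a list of names. A peak, a region in which a ChIP-seq library is enriched over background, was assigned to a gene when its summit lay in the gene body or within 5 kb on either side. The question was where, and in which cells, SOX2, β-catenin and the TCF and LEF proteins occupied these genes.

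ChIP-seq had been done for 5 proteins in 4 conditions of mouse embryonic stem cell (ESC) cultures, with 3 biological replicates each, giving 60 libraries with a peak list. The proteins were SOX2, a regulator of pluripotency and of neural progenitors, β-catenin, the effector of WNT signalling, and 3 DNA-binding factors through which β-catenin acts. These were TCF7L1, TCF7L2 and LEF1, of which the labels call TCF7L1 TCF3 and TCF7L2 TCF4. The other 4 samples were input DNA and were not analysed here. All samples carried the label 72 h. Naive ESC were wild-type cells in 2i medium, in which MEK and GSK3 are inhibited. The wild-type cells called CEpiLC (caudal epiblast-like cells) had been differentiated with bFGF at 10 ng/ml and the WNT secretion inhibitor LGK974 at 5 µM, then also with the GSK3 inhibitor CHIR99021. SOX2-ON and SOX2-OFF cells were differentiated too, but came from the SOX2 TetON line, labelled Sox2-/-, in which a doxycycline-inducible Sox2 transgene had been placed at HPRT before the endogenous gene was ablated. Doxycycline at 1 µg/ml was maintained in SOX2-ON and withdrawn in SOX2-OFF. The wild type was the parental XY HM1 TetON line (strain 129), so genotype and transgene differ together between CEpiLC and the SOX2 TetON groups, and each genotype is represented by 1 line. RNA was not measured in these libraries, so neither SOX2 level nor cell identity could be checked from them.

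Hox genes encode homeodomain transcription factors that give cells their position along the head-to-tail axis. They lie in clusters, and their order along the chromosome follows the order in which they are switched on and the body level at which they act. In the caudal epiblast of the embryo, WNT and FGF signals act with Cdx factors to open Hox clusters step by step. β-catenin does not bind DNA itself and reaches chromatin through LEF1 and the TCF proteins, which recognise a short motif beginning CTTTGA.

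Read depth was unknown because the files list peaks and not reads. The lists held 1628 to 991719 peaks, with a median of 106232. To put them on 1 scale, the 20000 peaks with the highest fold enrichment (as deposited) were taken from each list, and 10 shorter lists were kept whole. The shortest were TCF7L1 in CEpiLC replicate 1 (1628 peaks), β-catenin in SOX2-OFF replicate 2 (3423), TCF7L2 in SOX2-OFF replicate 2 (4134), LEF1 in CEpiLC replicate 1 (4443) and TCF7L2 in CEpiLC replicate 1 (4627). List length moved with condition: all 3 β-catenin lists of CEpiLC (10930 to 20453 peaks) were shorter than the 3 of naive ESC (49737 to 222062). Its part in the results was not tested beyond the alternatives of list length given with them.

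The strongest summits fell on 133 sites, formed by joining summits at most 250 bp apart, and 72 of these sites were seen in 1 library. The 7 sequences that follow show the sites that recurred most in each cluster, or that were found in 3 of 3 CEpiLC and 0 of 3 naive ESC libraries of SOX2 or β-catenin. The last criterion was met by 14 sites. Of the 8 sites selected, 1 lies over an untranslated region of Hoxc8 and is named only. Each sequence is the 200 bp round the median summit on the + strand of GRCm38 (mm10). Capitals mark matches on either strand to the SOX motif CATTGT or CTTTGT, the TCF motif CTTTGAA or CTTTGAT, the CDX motif TTTATGG or TTTATTG, or the T-box motif GGTGTG. The SOX and TCF motifs share letters, but no stretch can match both in full.
Hoxd1 upstream site (chr2:74760248-74760447): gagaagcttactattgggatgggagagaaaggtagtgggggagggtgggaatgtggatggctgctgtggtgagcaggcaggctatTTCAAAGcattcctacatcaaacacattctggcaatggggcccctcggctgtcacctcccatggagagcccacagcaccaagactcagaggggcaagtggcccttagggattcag
Hoxc10 upstream site (chr15:102963751-102963950): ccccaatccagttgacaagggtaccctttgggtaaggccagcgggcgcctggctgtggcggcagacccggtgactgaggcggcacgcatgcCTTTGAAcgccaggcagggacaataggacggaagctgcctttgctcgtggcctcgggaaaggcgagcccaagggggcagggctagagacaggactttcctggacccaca
Hoxc5 exon site (chr15:103014289-103014488): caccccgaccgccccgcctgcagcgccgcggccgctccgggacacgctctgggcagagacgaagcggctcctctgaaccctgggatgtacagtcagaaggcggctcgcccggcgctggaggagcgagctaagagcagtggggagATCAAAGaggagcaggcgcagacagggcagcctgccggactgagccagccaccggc
Haglr exon site (chr2:74749805-74750004): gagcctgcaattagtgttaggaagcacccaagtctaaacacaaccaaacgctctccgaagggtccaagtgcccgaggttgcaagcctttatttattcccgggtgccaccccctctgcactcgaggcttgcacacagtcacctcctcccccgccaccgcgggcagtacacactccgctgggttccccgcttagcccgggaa
Hoxc4 intron site (chr15:103035379-103035578): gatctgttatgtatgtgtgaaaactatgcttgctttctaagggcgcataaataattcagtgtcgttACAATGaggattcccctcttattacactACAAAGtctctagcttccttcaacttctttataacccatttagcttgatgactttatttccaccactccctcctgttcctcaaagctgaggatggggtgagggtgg
Gm14424 exon site (chr2:74752873-74753072): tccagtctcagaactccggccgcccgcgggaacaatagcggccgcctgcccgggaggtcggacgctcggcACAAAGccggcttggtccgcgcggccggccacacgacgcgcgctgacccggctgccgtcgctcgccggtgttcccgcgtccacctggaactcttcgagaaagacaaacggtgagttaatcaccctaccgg
Hoxd3 intron site (chr2:74721159-74721358): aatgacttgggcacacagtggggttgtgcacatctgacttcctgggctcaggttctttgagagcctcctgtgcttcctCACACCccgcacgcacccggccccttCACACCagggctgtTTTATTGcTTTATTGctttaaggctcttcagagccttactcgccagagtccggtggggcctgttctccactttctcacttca

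The Hoxd1 upstream site held the TCF motif on the - strand, starting 15 bp before the median summit, and lay 2632 bp upstream of the Hoxd1 start between gene models. The Hoxc10 upstream site held the TCF motif on the + strand, starting 9 bp before the summit, and lay 2945 bp upstream of Hoxc10. The site in the coding exon of Hoxc5, 4545 bp upstream of Hoxc4, held a TCF motif starting 44 bp after the median summit. Its summits were spread over 1213 bp, against 85 bp for the Hoxd1 site and 191 bp for the Hoxc10 site. The Hoxc4 intron site held 2 SOX motifs, the Gm14424 exon site held 1, and the Hoxd3 intron site held 2 CDX and 2 T-box motifs. The Haglr exon site held none of these letters.

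Among the 20 sites with summits in at least 6 of 60 libraries, 10 lay in each cluster. A TCF motif was present in 6 of them (30%), against 32.1% of all 29742 sites in the genome defined in the same way. A SOX motif was present in 8 (40%, against 46.6%) and a T-box motif in 3 (15%, against 14.9%). A CDX motif was present in 5 (25.0%), against 5.37% of all sites. The Hox sites had a median GC content of 57.5%, against 49.0%, and a median of 11 CpG against 2. These shares are descriptions of 20 sites and were not tested. Taken by protein, 3 of 3 TCF7L1 sites with summits in at least 3 of its 12 libraries held a TCF motif (100%, against 44.7% of all TCF7L1 sites), and so did 3 of 5 LEF1 sites (60%, against 56.9%), 3 of 5 TCF7L2 sites (60%, against 31.6%) and 5 of 12 β-catenin sites (41.7%, against 41.4%). The 3 TCF7L1 sites (Hoxd1 upstream, Hoxc10 upstream and Hoxc5 exon) were the same as the 3 TCF7L2 sites with a TCF motif. The Hoxd1 and Hoxc5 sites were also among the LEF1 sites, so these shares are not separate observations. Of the 13 SOX2 sites, 6 held a SOX motif (46.2%, against 56.3%), as did 0 of the 5 TCF7L2 sites (against 27.6%).

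**Figure D1:**
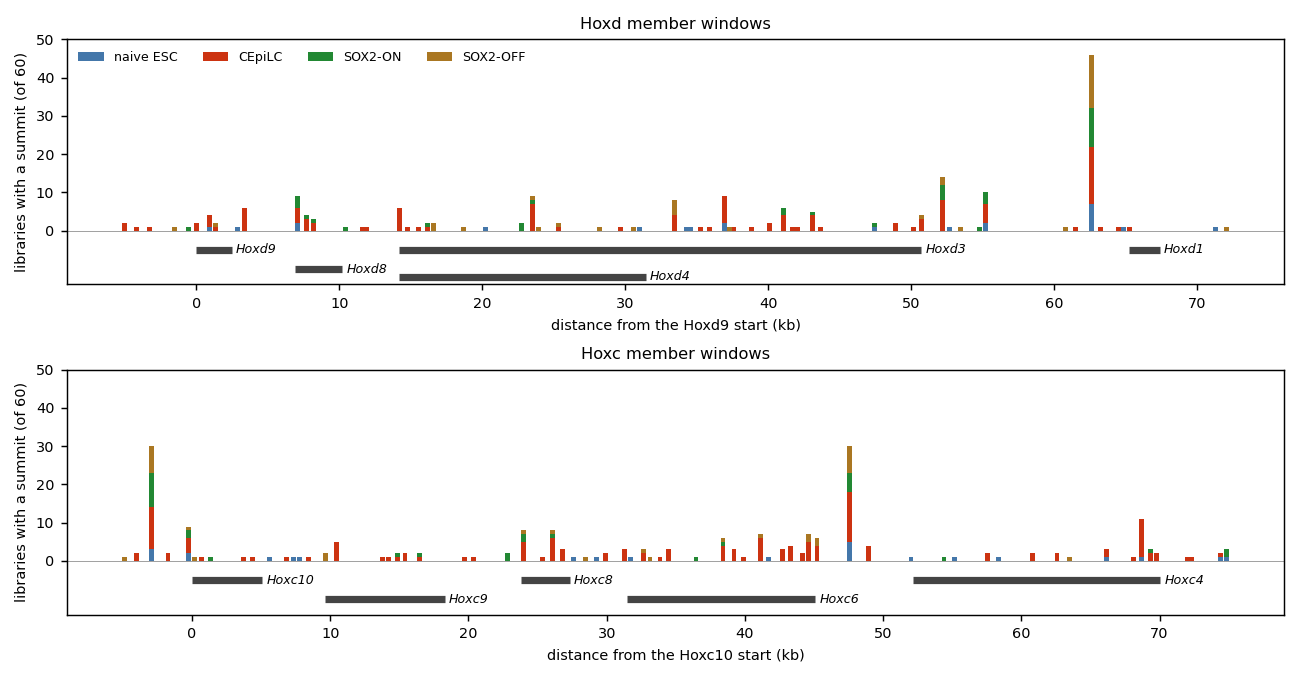
Number of libraries, out of 60, with a summit at each of the 133 sites, plotted by distance in kb from the start of Hoxd9 (top) or Hoxc10 (bottom), with bars stacked by condition and gene bodies drawn below the axis. The tallest bar, 46 libraries, stands upstream of Hoxd1, and the bars of 30 libraries stand upstream of Hoxc10 and between Hoxc6 and Hoxc4.

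In all, 3 stretches of the genome held all member windows, because neighbouring windows overlap: 80057 bp from Hoxc10 to Hoxc4, 60716 bp from Hoxd9 to Hoxd3 and 12163 bp round Hoxd1. Of the 133 sites, 44 lay in the windows of several members, and Hoxd4 lies inside the Hoxd3 gene model. A single peak could therefore count for several genes, and the 10 genes are not 10 independent measurements.

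CEpiLC had far more strong peaks in these stretches than the other conditions for SOX2, β-catenin and LEF1. Strong means among the 20000 strongest of a list, and the lowest fold so admitted differed between lists. For β-catenin it was 3.08, 1.61 and 1.54 in CEpiLC and 5.9, 6.35 and 5.64 in naive ESC. For LEF1 it was 2.27, 2.04 and 3.34 against 5.64, 5.49 and 9.6, and for SOX2 4.33, 5.92 and 5.32 against 9.89, 6.34 and 6.02. A peak of the same fold could thus count in CEpiLC and not in naive ESC. SOX2 had 40, 20 and 23 peaks there in the 3 CEpiLC libraries, against 4, 1 and 2 in naive ESC. In the TetON line SOX2 had 3, 3 and 8 peaks in SOX2-ON and 9, 4 and 10 in SOX2-OFF. For β-catenin the CEpiLC libraries held 40, 22 and 16 peaks, and the naive ESC libraries held 5, 3 and 2. The β-catenin values were 8, 3 and 3 in SOX2-ON and 6, 2 and 7 in SOX2-OFF. LEF1 had 9, 19 and 19 peaks in CEpiLC, 2, 4 and 3 in naive ESC, 4 in each SOX2-ON library, and 3, 5 and 5 in SOX2-OFF. For these 3 proteins, every CEpiLC library held more peaks in the Hox stretches than any library of the other conditions, shorter lists included.

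The same was not seen for TCF7L1 and TCF7L2. TCF7L1 had 1, 8 and 5 peaks in CEpiLC, 1, 0 and 1 in naive ESC, 1, 5 and 4 in SOX2-ON and 3, 5 and 3 in SOX2-OFF, so that the groups overlapped. TCF7L2 had 11, 13 and 10 peaks in CEpiLC, above the 4 to 5 of SOX2-ON and the 1 to 3 of SOX2-OFF, but naive ESC reached 12. Relative to an even spread of each list over the genome, the Hox stretches held 17.8 to 35.6 times as many SOX2 peaks in CEpiLC and 0.891 to 3.56 times in naive ESC. The β-catenin ratios were 25.8 to 35.6 in CEpiLC and 1.78 to 4.46 in naive ESC. Of the sites in these stretches, 57 had summits in CEpiLC and in no other condition, 18 in naive ESC alone, 8 in SOX2-ON alone and 16 in SOX2-OFF alone. CEpiLC held 256 of the 434 peaks there, and 72 of the 133 sites were seen in 1 library. The matching shares over all sites in the genome were not computed, so these counts are descriptions.

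**Figure D2:**
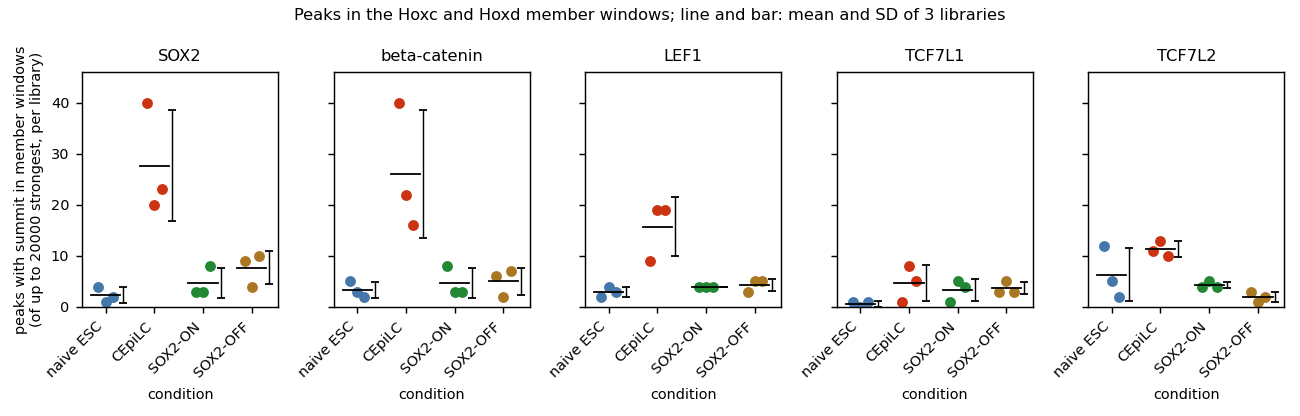
Number of peaks with the summit in the Hoxc and Hoxd windows, among up to 20000 strongest peaks, in each library (points) by condition, 1 panel per protein, with the mean and SD of 3 libraries. SOX2 in CEpiLC had 27.7 ± 10.8 peaks and in naive ESC 2.3 ± 1.5, and β-catenin had 26.0 ± 12.5 and 3.3 ± 1.5.

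By gene, SOX2 peaks were present in 3 of 3 CEpiLC libraries for 9 of the 10 genes (all but Hoxd8), while 23.9% of all protein-coding genes met that rule. In naive ESC 0 of 10 met it (18.8% of all genes), in SOX2-ON 2 of 10 (17.9%) and in SOX2-OFF 4 of 10 (14.8%). β-catenin was present in 3 of 3 CEpiLC libraries at 9 of 10 genes (17.3% of all genes), the exception being Hoxc9. It was present at 1 of 10 in naive ESC (17.7%), at 1 of 10 in SOX2-ON (14.0%) and at 3 of 10 in SOX2-OFF (6.33%). LEF1 was present at 7 of 10 in CEpiLC (9.31%), 1 in naive ESC (9.54%), 0 in SOX2-ON (9.96%) and 3 in SOX2-OFF (9.65%). The TCF7L2 counts were 6 in CEpiLC (14.5%), 0 in naive ESC (16.5%), 1 in SOX2-ON (15.9%) and 1 in SOX2-OFF (10.5%). For TCF7L1 they were 1 in CEpiLC (2.86%), 0 in naive ESC (22.5%), 1 in SOX2-ON (11.3%) and 2 in SOX2-OFF (12.8%). Member windows were at most 46516 bp long. Among the 15351 genes with windows up to that length, the CEpiLC shares were 17.0% (SOX2), 11.9% (β-catenin), 5.69% (LEF1), 1.13% (TCF7L1) and 11.3% (TCF7L2).

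The picture differed when weak peaks were counted. In all deposited peaks SOX2 was present in 3 of 3 naive ESC libraries at 10 of 10 genes (67.1% of all genes), the same number as in CEpiLC (43.6%). SOX2 was then present at 8 genes in SOX2-ON (59.6%) and 7 in SOX2-OFF (54.8%). In the order naive ESC, CEpiLC, SOX2-ON and SOX2-OFF, the LEF1 counts were 8 (66.3%), 7 (9.33%), 8 (72.1%) and 3 (29.0%), and the β-catenin counts were 6 (46.9%), 9 (17.4%), 7 (48.5%) and 3 (7.15%). Those of TCF7L1 were 0 (34.2%), 1 (3.84%), 1 (14.4%) and 5 (42.9%), and those of TCF7L2 were 9 (40.5%), 8 (18.6%), 8 (55.9%) and 1 (14.3%). Over the 5 proteins, 33 of 50 gene and protein pairs had peaks in 3 of 3 libraries in naive ESC and 35 in CEpiLC in all deposited peaks, against 2 and 32 in the 20000 strongest. In all deposited peaks β-catenin and, by 1 gene, TCF7L1 thus still had more of the genes in CEpiLC than in naive ESC, while SOX2 had as many and LEF1 and TCF7L2 had fewer. The naive ESC lists of SOX2, β-catenin, LEF1 and TCF7L1 had the longer median length, and those of TCF7L2 the shorter.

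**Figure D3:**
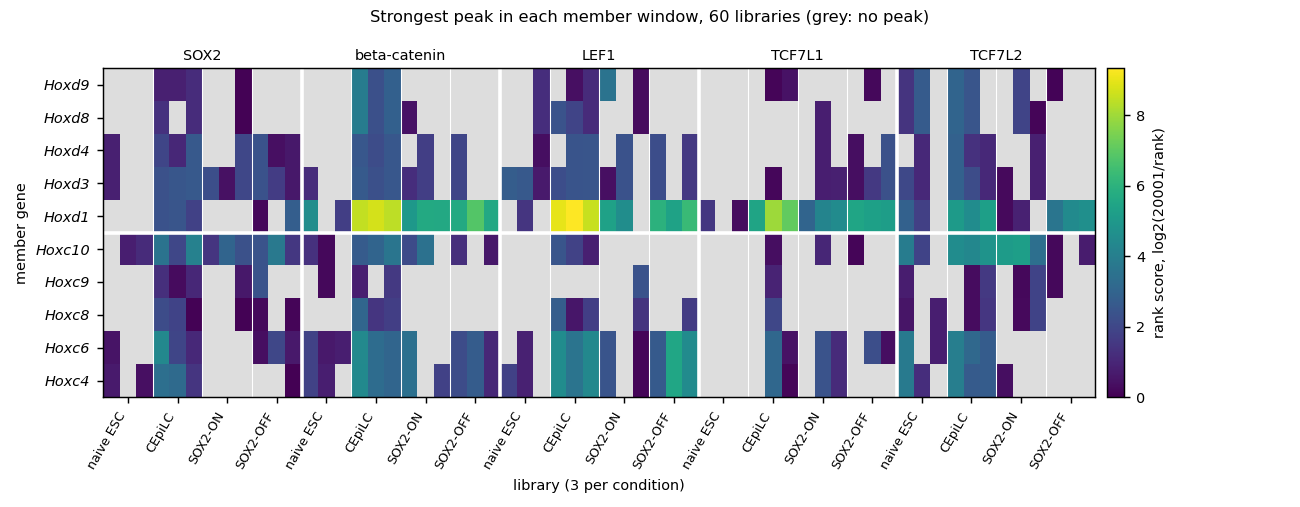
Rank score of the strongest peak in each member window (rows) in each of the 60 libraries (columns, grouped by protein and condition), with grey for no peak among the 20000 strongest. Hoxd1 holds the brightest cells, in the CEpiLC libraries of LEF1 and β-catenin, and SOX2 and β-catenin cover nearly all rows in CEpiLC.

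The 10 genes were then compared between conditions by the rank score of their strongest peak. Rank 1 is the strongest peak of the library, the score is log2((20000 + 1)/rank), and a score of 0 means no peak among the 20000 strongest. From here on, having a peak or none refers to those peaks unless all deposited peaks are named. A difference of 1 corresponds to a 2-fold change in rank. limma was fitted to all genes with a peak in at least 3 of the 12 libraries of a protein, and p-values were adjusted over all of those genes by the Benjamini-Hochberg method. Of the 4 comparisons, 3 share the CEpiLC libraries.

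Hoxd1, a homologue of the fly gene labial, had the best ranks of the 10 genes in CEpiLC for every protein but SOX2. In each of the 46 libraries with a strong peak in its window, the strongest was at the upstream site shown above, and in all deposited peaks a summit lay in the same 85 bp in 51 of 60 libraries. β-catenin ranked this site 56, 47 and 59 in CEpiLC, and its fold enrichment there was 56.8, 86.3 and 75.2. In naive ESC β-catenin ranked it 836 in replicate 1 and 6095 in replicate 3 and had no peak in replicate 2. The ranks were 629, 390 and 398 in SOX2-ON and 389, 177 and 402 in SOX2-OFF. The CEpiLC libraries were thus above every other β-catenin library. The rank score of Hoxd1 was 6.44 ± 0.86 (SE) higher in CEpiLC than in naive ESC (limma adjusted p = 0.000191) and differed by -3.10 ± 0.86 between SOX2-ON and CEpiLC (adjusted p = 0.0257). The second call was lost without any 1 of the 6 libraries (adjusted p up to 0.0779).

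LEF1 gave Hoxd1 its best ranks, 39, 31 and 54 in CEpiLC. It had a rank of 7348 in naive ESC replicate 2 and no strong peak in the other naive ESC libraries. The LEF1 ranks were 488 and 838 in SOX2-ON, with no strong peak in replicate 3, and 310, 479 and 248 in SOX2-OFF. In all deposited peaks the window held a LEF1 peak in 3 of 3 libraries of both naive ESC and SOX2-ON. The difference between CEpiLC and naive ESC was 8.47 ± 1.11 (adjusted p = 0.00159) and that between SOX2-ON and CEpiLC was -5.64 ± 1.11 (adjusted p = 0.0124, and 0.0526 without CEpiLC replicate 2). TCF7L1 ranked the Hoxd1 site 459, 79 and 147 in CEpiLC, 6934 and 16207 in naive ESC, 2474, 1072 and 880 in SOX2-ON, and 442, 507 and 551 in SOX2-OFF. Its rank score was 6.23 ± 0.66 higher in CEpiLC than in naive ESC (adjusted p = 0.000138). The TCF7L1 difference between SOX2-ON and CEpiLC was -2.92 ± 0.66 (adjusted p = 0.0382) and was called in 1 of 6 fits that left out 1 library (adjusted p up to 0.102), namely that without CEpiLC replicate 1.

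TCF7L2 was the only protein with a call between SOX2-ON and SOX2-OFF at any of the 10 genes, and that gene was Hoxd1. The ranks were 1614, 911 and 797 in SOX2-OFF and 16958 and 10981 in SOX2-ON, with no strong peak in replicate 3, so the groups did not overlap. The difference was -3.88 ± 0.66 (adjusted p = 0.0256, where 0.311% of the tested genes were lower and 0.204% higher in SOX2-ON). It held only without SOX2-OFF replicate 1 among the 6 fits that left out 1 library (adjusted p up to 0.0856). TCF7L2 ranked the site 585, 860 and 514 in CEpiLC and 2687 and 5798 in naive ESC, a difference of 3.41 ± 0.66 (adjusted p = 0.0199). This call was lost without naive ESC replicate 2 or CEpiLC replicate 1 or 3 (adjusted p up to 0.0725). Between SOX2-ON and CEpiLC the difference was -4.60 ± 0.66 (adjusted p = 0.00451), and it passed without any 1 library but was lost with all deposited peaks and on the log2 fold scale (up to 0.702). On the log2 fold scale the Hoxd1 calls between CEpiLC and naive ESC were also lost for β-catenin (0.0523), LEF1 (0.0911) and TCF7L1 (0.156), and so was the LEF1 call between SOX2-ON and CEpiLC (0.213). The other Hoxd1 calls of β-catenin, TCF7L1 and TCF7L2 were lost on that scale too. The TCF7L2 call between SOX2-ON and SOX2-OFF was lost as well with 50000 peaks, all deposited peaks, a replicate block in the fit, and the 6 libraries compared alone (adjusted p up to 0.691 over all alternatives).

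SOX2 itself ranked the Hoxd1 site 3951, 3628 and 5760 in CEpiLC and had no strong peak there in any naive ESC or SOX2-ON library. In SOX2-OFF its ranks were 17742 and 2927, with none in replicate 2. The fold enrichment of SOX2 in CEpiLC was 8.89, 9.69 and 8.59, below that of β-catenin. The SOX2 differences at Hoxd1 were 2.20 ± 0.60 between CEpiLC and naive ESC (adjusted p = 0.0268) and -2.20 ± 0.60 between SOX2-ON and CEpiLC (adjusted p = 0.0288). Both passed in only 1 of 6 fits that left out 1 library, the fit without CEpiLC replicate 3, with adjusted p up to 0.0785 and 0.0847 in the others.

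**Figure D4:**
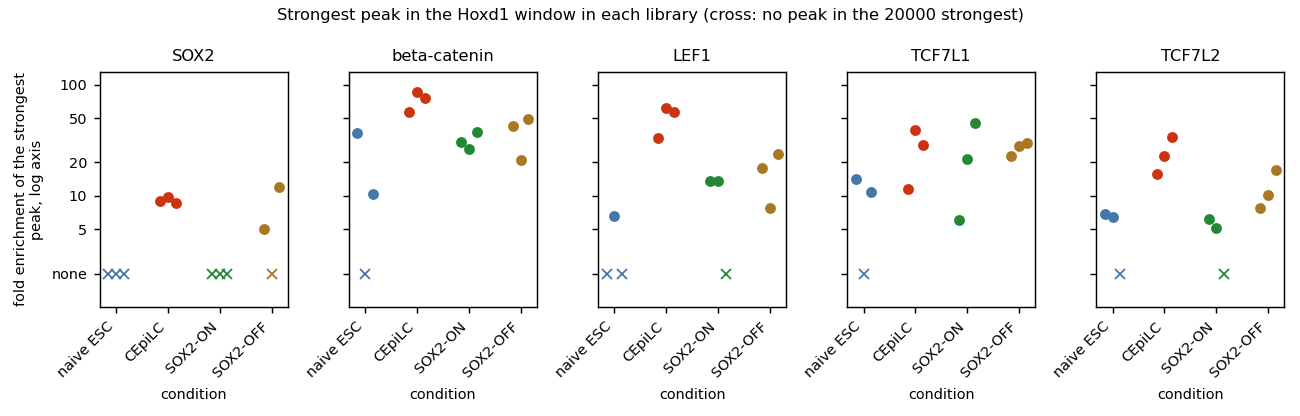
Fold enrichment, on a log axis, of the strongest peak in the Hoxd1 window in each library by condition, 1 panel per protein, with crosses for libraries without a peak among the 20000 strongest. The 3 CEpiLC points of β-catenin, 56.8, 86.3 and 75.2, lie above all other β-catenin points, while the TCF7L1 points of CEpiLC, SOX2-ON and SOX2-OFF overlap.

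Between CEpiLC and naive ESC, the rank score of β-catenin was higher in CEpiLC for 9 of the 10 genes (14.8% of tested genes were higher) and lower for 0 (14.4%). The median difference was 2.54 over the 10 genes and 0.05 over all 10511 genes tested. Hoxd9, which acts in the lumbar region and limb, had β-catenin ranks of 1318, 4131 and 2762 in CEpiLC and no strong peak in the other 9 libraries, with a difference of 3.02 ± 0.37 (adjusted p = 0.0001). Its neighbour Hoxd8 had the same ranks in CEpiLC, and apart from them a rank of 14434 in SOX2-ON replicate 1 (difference 3.02 ± 0.38, adjusted p = 0.000124). Hoxc8, which patterns thoracic vertebrae, had ranks of 2336, 7343 and 5992 in CEpiLC and none elsewhere (2.09 ± 0.38, adjusted p = 0.00146). Hoxd9 and Hoxc8 entered the test only through their CEpiLC libraries and so had to differ. Hoxd4, a gene of the neck region, had ranks of 3419, 4393 and 3444 in CEpiLC and none in naive ESC (2.42 ± 0.57, adjusted p = 0.00675). The calls of Hoxd8, Hoxd4 and Hoxd1 passed in each of the 6 fits without 1 library. For Hoxd9 and Hoxc8 these fits could remove only libraries without a peak and so bear on nothing. Hoxd8 and Hoxd4 also reached the minimum of 3 libraries only with their CEpiLC libraries, and Hoxd8 shares its strongest CEpiLC peak with Hoxd9. With all deposited peaks the Hoxd4 and Hoxc8 calls were lost (adjusted p = 0.214 and 0.0681).

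The other 4 β-catenin calls depended on single libraries. Hoxc10, a gene of lumbar levels, had ranks of 3090, 2516 and 1628 in CEpiLC and 7857 and 17208 in naive ESC (2.58 ± 0.73, adjusted p = 0.0195). Its call was lost without naive ESC replicate 2 or 3 or CEpiLC replicate 3 (up to 0.0723). Hoxd3 had CEpiLC ranks of 3233, 4158 and 3444 and a rank of 8699 in 1 naive ESC library (2.08 ± 0.59, adjusted p = 0.0197), lost without naive ESC replicate 2 or 3 or CEpiLC replicate 1 or 3 (up to 0.0732). Hoxc4, the last gene of its cluster, had ranks of 936, 2010 and 2415 in CEpiLC and 5518 and 11626 in naive ESC (2.71 ± 0.80, adjusted p = 0.0227), lost without naive ESC replicate 2 or 3 or CEpiLC replicate 1 (up to 0.0915). Hoxc6, a gene of the forelimb level, had ranks of 955, 2010 and 2415 in CEpiLC and 5518, 12796 and 11691 in naive ESC (2.49 ± 0.83, adjusted p = 0.0417). It passed in 1 of 6 such fits, that without naive ESC replicate 1 (up to 0.132). Hoxc9, a gene of thoracic motor neurons, had ranks of 11551 and 6750 in 2 CEpiLC libraries and 17208 in 1 naive ESC library and was not called.

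For SOX2, 6 of the 10 genes had a higher rank score in CEpiLC than in naive ESC (9.78% of tested genes) and 0 a lower one (7.41%). The median difference was 1.89, against 0.15 over 12215 genes. Hoxc4 had ranks of 1865, 2162 and 7379 in CEpiLC and 12568 and 15398 in naive ESC, a difference of 2.34 ± 0.46 (adjusted p = 0.00528). This call passed without any 1 library but was lost with all deposited peaks and on the log2 fold scale (adjusted p up to 0.454), and all 6 SOX2 calls were lost with all deposited peaks. Hoxc10 had ranks of 1694, 5080 and 1166 in CEpiLC and 11620 and 8923 in naive ESC (2.56 ± 0.69, adjusted p = 0.0252). The strongest Hoxc10 peak was at the upstream site in 26 of the 36 libraries with a strong peak, over all proteins. At that site SOX2 had no strong peak in naive ESC and a strong peak in 3 of 3 libraries of every other condition. The call was lost without naive ESC replicate 1 or 2 or CEpiLC replicate 1 or 3 (up to 0.0954).

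Hoxd3 had SOX2 ranks of 4016, 3514 and 3299 in CEpiLC and 11277 in 1 naive ESC library (2.20 ± 0.54, adjusted p = 0.0163), lost without naive ESC replicate 2 or 3 or CEpiLC replicate 3 (up to 0.0619). Hoxc6 had ranks of 981, 5160 and 9401 against 14302 in 1 naive ESC library (2.30 ± 0.71, adjusted p = 0.0446) and passed only without CEpiLC replicate 3 (up to 0.119). Hoxd9 had ranks of 11462, 11264 and 8862 in CEpiLC and no strong peak in naive ESC (0.94 ± 0.26, adjusted p = 0.0284), and passed in 0 of 6 fits without 1 library (up to 0.112). For SOX2, Hoxd9 and Hoxd1 reached the minimum of 3 libraries only with their CEpiLC libraries. Hoxc8, Hoxc9, Hoxd4 and Hoxd8 were not called. LEF1 gave higher scores in CEpiLC for Hoxd1 and Hoxc6 among the 9 genes tested (3.84% of tested genes higher and 0.488% lower). Hoxc9 was not tested, having a LEF1 peak in 1 library. Hoxc6 had LEF1 ranks of 854, 1671 and 977 in CEpiLC and 10984 in 1 naive ESC library (3.87 ± 0.81, adjusted p = 0.0191), lost without naive ESC replicate 3 or CEpiLC replicate 1 or 3 (up to 0.0781). Hoxd1 was the 1 gene called higher for TCF7L1 (of 7 tested, with 1.41% of tested genes higher and 13.2% lower) and for TCF7L2 (of 10 tested, with 1.58% higher and 0.727% lower).

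Outside Hoxd1, TCF7L1 had no strong peak in naive ESC at any of the other 9 genes, and Hoxd8, Hoxc9 and Hoxc8 had too few TCF7L1 peaks to be tested. Its best rank outside Hoxd1 was 2327, in CEpiLC replicate 2, in the windows of both Hoxc6 and Hoxc4. TCF7L2 did occupy several of the genes in naive ESC. It ranked Hoxd9 and Hoxd8 at 7640 and 3112 in naive ESC and 2460 and 3637 in CEpiLC, so the groups overlapped. It ranked Hoxc6 at 1256, 2247 and 3016 in CEpiLC and at 1397 and 11519 in naive ESC, and had no strong peak there in any SOX2-ON or SOX2-OFF library.

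**Figure D5:**
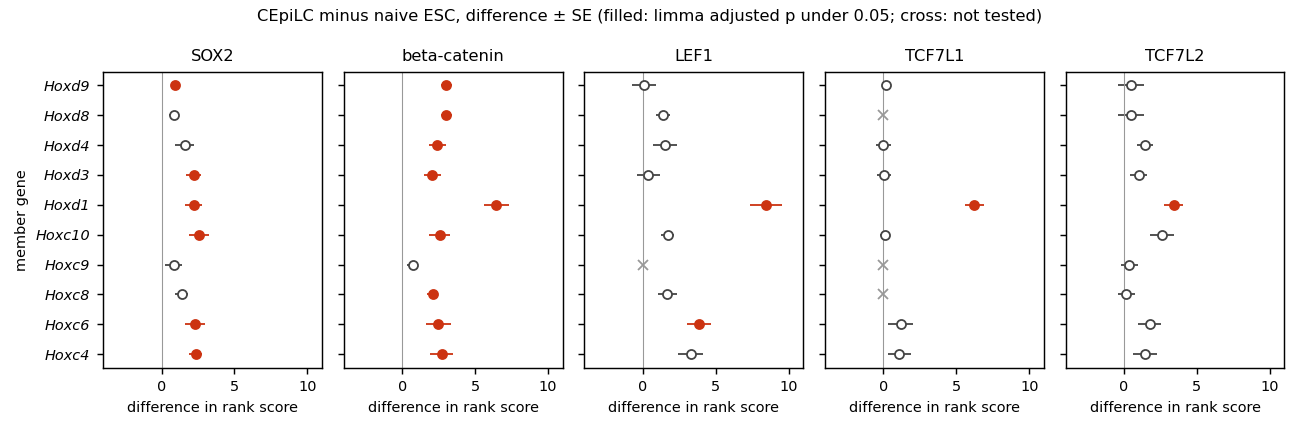
Difference in rank score between CEpiLC and naive ESC with its SE for each of the 10 genes, 1 panel per protein, with filled points for limma adjusted p under 0.05 and crosses for genes with too few peaks to test. Filled points are to the right of 0 in all panels, 9 of them for β-catenin, 6 for SOX2, 2 for LEF1 and 1 each for TCF7L1 and TCF7L2, and Hoxd1 is farthest right for β-catenin, LEF1, TCF7L1 and TCF7L2.

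Counted by presence alone, 4 of the 10 genes had a SOX2 peak in 3 of 3 CEpiLC and 0 of 3 naive ESC libraries (Hoxc8, Hoxc9, Hoxd1 and Hoxd9), against 3.48% of all genes. For β-catenin there were also 4 (Hoxc8, Hoxd4, Hoxd8 and Hoxd9, against 3.42%), for LEF1 there were 2 (Hoxc8 and Hoxc10, against 1.32%), and for TCF7L1 and TCF7L2 there were 0 (0.219% and 0.867%). LEF1 at Hoxc10 also entered the test through its CEpiLC libraries alone and was not called. In the opposite direction the count was 0 for each protein (1.91%, 3.57%, 1.60%, 5.08% and 0.945% of all genes in the order SOX2, β-catenin, LEF1, TCF7L1 and TCF7L2). Against SOX2-OFF the counts for CEpiLC were 1 for SOX2 (Hoxd9, 2.39%), 3 for β-catenin (Hoxc8, Hoxd8 and Hoxd9, 2.42%), 2 for LEF1 (Hoxc10 and Hoxd8, 1.22%), 0 for TCF7L1 (0.0593%) and 4 for TCF7L2 (Hoxc4, Hoxc6, Hoxd3 and Hoxd4, 1.12%). Against SOX2-ON they were 3 for SOX2 (Hoxc4, Hoxc6 and Hoxd1, 3.53%), 2 for β-catenin (Hoxc8 and Hoxd9, 2.72%), 1 for LEF1 (Hoxc10, 1.63%), 0 for TCF7L1 (0.0867%) and 1 for TCF7L2 (Hoxc6, 0.817%). The counts of genes with peaks in 3 of 3 TetON libraries and 0 of 3 CEpiLC libraries were 0 throughout, where the shares of all genes ran in the same order over 0.625%, 0.178%, 1.41%, 1.04% and 0.224% for SOX2-OFF and over 1.55%, 1.87%, 1.64%, 1.19% and 0.872% for SOX2-ON. No test was made on presence, since 0.1 is the smallest p that an exact permutation of 3 against 3 libraries allows.

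Among the remaining genes of the 2 clusters, which were Hoxc5, Hoxc11, Hoxc12, Hoxc13, Hoxd10, Hoxd11, Hoxd12 and Hoxd13, SOX2 scores were higher in CEpiLC for Hoxc5 and Hoxd10 among 8 tested, and β-catenin scores for Hoxc5 among 6 tested. The Hoxc5 window (59987 bp) overlaps those of all 5 Hoxc members, and the Hoxd10 window those of Hoxd8 and Hoxd9. These calls can therefore rest on peaks already counted for members. Of the 11 Hoxa genes, 5 were called higher for SOX2 (of 11 tested) and 8 for β-catenin (of 10 tested). Of the 10 Hoxb genes, 7 were called higher for SOX2 and 8 for β-catenin. Over all tested genes, 9.78% were called higher in CEpiLC than in naive ESC for SOX2 and 14.8% for β-catenin. The difference between the lists of Hox genes was not tested.

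Between SOX2-ON and SOX2-OFF, the 2 states of the TetON line, TCF7L2 differed at Hoxd1, as given above. The TCF7L2 difference at Hoxc10 was larger and of the opposite sign (4.28 ± 0.84), but missed the threshold (limma adjusted p = 0.0522). The ranks were 579, 535 and 1906 in SOX2-ON and 17579 and 12198 in SOX2-OFF, so the groups did not overlap. SOX2-OFF replicate 2 had no peak there and scored 0, but its list of 4134 peaks could not hold such ranks. limma called 0 of the 10 genes in either direction for SOX2 (6.24% of tested genes higher and 5.19% lower in SOX2-ON), β-catenin (6.17% and 3.26%), LEF1 (0.497% and 0.392%) and TCF7L1 (1.22% and 0.681%). Counts of 0 calls among 10 genes lie close to these shares of all genes and say little about the members. At an unadjusted limma p under 0.05 there were 3 genes for LEF1, 2 for TCF7L2 (Hoxd1 and Hoxc10) and 0 for each of the others. Among all tested genes that threshold was met by 943 of 11465 for LEF1 and 1092 of 12234 for TCF7L2. It was met by 2803 of 12215 for SOX2, 2015 of 10511 for β-catenin and 1370 of 10565 for TCF7L1. The median difference over the members tested was -0.35 for LEF1, -0.20 for SOX2, -0.06 for TCF7L1, 0.00 for β-catenin and 0.48 for TCF7L2. SOX2 ranked Hoxc10 at 7443, 2493 and 4033 in SOX2-ON and 3814, 1452 and 7075 in SOX2-OFF, so the groups overlapped. Hoxc6 was the 1 gene with a SOX2 peak in 3 of 3 SOX2-OFF libraries (15692, 5030 and 12831) and in 0 of 3 SOX2-ON libraries (1.68% of all genes), without a limma call. The reverse pattern was met by 0 genes for SOX2 (1.73%), and no gene met either pattern for the other proteins, for which the shares of all genes in SOX2-ON and SOX2-OFF were 1.58% and 0.141% (β-catenin), 0.602% and 0.739% (LEF1), 0.593% and 0.707% (TCF7L1), and 0.981% and 0.228% (TCF7L2). Strong SOX2 peaks were listed in SOX2-OFF although the transgene had been switched off, and how much SOX2 remained was not measured here.

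Both states of the TetON line had lower scores than CEpiLC at some of the genes, and limma called 0 of the 10 genes higher than in CEpiLC for any protein. Over all tested genes, the shares called higher in SOX2-OFF were 1.23% (SOX2), 1.36% (β-catenin), 0.235% (LEF1), 0.861% (TCF7L1) and 0.245% (TCF7L2), and in SOX2-ON 6.05%, 6.92%, 1.01%, 2.47% and 0.401% in that order. In SOX2-OFF, β-catenin was lower than in CEpiLC at Hoxd9 (-3.02 ± 0.37, adjusted p = 0.00129), Hoxd8 (-3.02 ± 0.38, adjusted p = 0.00143) and Hoxc8 (-2.09 ± 0.38, adjusted p = 0.00726), which is 3 of 10 genes (6.13% of tested genes). In SOX2-ON it was lower at the same 3 genes (-3.02 ± 0.37, -2.86 ± 0.38 and -2.09 ± 0.38, with adjusted p of 0.000238, 0.000401 and 0.00261), at Hoxd1 (above) and at Hoxd4 (-1.85 ± 0.57, adjusted p = 0.0408), which is 5 of 10 (11.1%). Hoxd8 passed in each of the 6 fits without 1 library in both comparisons, while Hoxd4 passed only without SOX2-ON replicate 2 (up to 0.132). As above, Hoxd9 and Hoxc8 were tested only because of their CEpiLC peaks and had to differ. Hoxd8 and Hoxd4 too would not have been tested without their CEpiLC peaks. Of these calls, that of Hoxc8 was lost with all deposited peaks in both comparisons, and in SOX2-OFF also with 10000 peaks and with the 6 libraries compared alone. That of Hoxd8 in SOX2-ON was lost on the log2 fold scale (adjusted p = 0.0834). Those of Hoxd4 and Hoxd1 in SOX2-ON were lost with 50000 peaks, all deposited peaks, no filter and the log2 fold scale (up to 0.241 and 0.574 over all alternatives).

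SOX2 was lower than in CEpiLC at Hoxc4 in SOX2-OFF (-2.68 ± 0.46, adjusted p = 0.00845), which was 1 of 10 genes (4.30% of tested genes). Hoxc4 had no strong SOX2 peak in SOX2-ON and a rank of 19522 in 1 SOX2-OFF library. In SOX2-ON, 4 of 10 genes were lower than in CEpiLC (9.59%), namely Hoxc4 (-2.69 ± 0.46, adjusted p = 0.00236), Hoxd1 (above), Hoxc6 (-2.46 ± 0.71, adjusted p = 0.0354) and Hoxd9 (-0.92 ± 0.26, adjusted p = 0.0323). Both Hoxc4 calls passed without any 1 library but were lost with all deposited peaks and on the log2 fold scale (adjusted p up to 0.269 in SOX2-OFF and 0.132 in SOX2-ON), and that in SOX2-OFF also when the 6 libraries compared were fitted alone. Hoxc6 passed only without CEpiLC replicate 3 (up to 0.0896) and Hoxd9 in 0 of the 6 fits (up to 0.125). As above, Hoxd9 and Hoxd1 would not have been tested for SOX2 without their CEpiLC peaks, so their calls add little to the count.

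LEF1 was lower in SOX2-ON than in CEpiLC at 3 of the 9 genes tested (4.21%). Besides Hoxd1, Hoxc6 and Hoxc4 shared their LEF1 peaks, with ranks of 854, 1671 and 977 in CEpiLC and 3705 and 18094 in SOX2-ON. The differences were -3.30 ± 0.81 for Hoxc6 (adjusted p = 0.0371) and -3.30 ± 0.85 for Hoxc4 (adjusted p = 0.0466), and both passed only without SOX2-ON replicate 1 (up to 0.128 and 0.153). In SOX2-OFF the LEF1 ranks at Hoxc6 and Hoxc4 were 3227, 440 and 881, and LEF1 had 0 calls against CEpiLC (2.59% of tested genes lower). At an unadjusted limma p under 0.05 there were 3 members, and 1395 of all 11465 tested genes. TCF7L2 was lower in SOX2-OFF than in CEpiLC at Hoxc10, 1 of 10 genes (0.948%). Its ranks there were 858, 1006 and 724 in CEpiLC, 579, 535 and 1906 in SOX2-ON, and 17579 and 12198 in SOX2-OFF. SOX2-OFF replicate 2, a list of 4134 peaks, had none there. The difference between SOX2-OFF and CEpiLC was -4.25 ± 0.84 (limma adjusted p = 0.0335). That call passed in 0 of 6 fits without 1 library (up to 0.0946). In SOX2-ON, Hoxd1 was the 1 gene called lower than CEpiLC for TCF7L1 (0.814%) and for TCF7L2 (1.54%). TCF7L1 had 0 calls between SOX2-OFF and CEpiLC (0.151% lower). At an unadjusted limma p under 0.05 there were 2 members, and 1094 of all 10565 tested genes.

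The gene deserts on either side of the Hoxd cluster hold long-range elements of Hoxd genes. Over the 5 proteins together, they did not show the rise seen in the cluster. Between Evx2 and Atp5g3 (741664 bp) the 15 CEpiLC libraries held 0 to 10 strong peaks with a median of 3, and the 15 naive ESC libraries 2 to 14 with a median of 5. Between Mtx2 and Hnrnpa3 (780829 bp) CEpiLC libraries held 0 to 12 peaks with a median of 7, and naive ESC libraries 5 to 16 with a median of 9. Per library, the median ratio to an even spread over the genome was 0.735 and 1.5 in CEpiLC for the 2 deserts, and 0.919 and 1.57 in naive ESC. By protein, the TCF7L1 medians were higher in CEpiLC than in naive ESC (7 against 3, and 9 against 7). This was so although the CEpiLC list of 1628 peaks held 0 in either desert. The SOX2 median of the second desert was also higher (6 against 5), and the other medians were equal or lower.

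The genes outside the Hox clusters whose rank score followed the mean of the 10 genes most closely over the 60 libraries were Hand1 (Pearson's r = 0.80), Tle2 (0.78) and Wnt11 (0.77). The 60 libraries share list length and condition, so these values are descriptions. Among the members, the correlation of each with the mean of the other 9 ran from 0.17 for Hoxc9 to 0.77 for Hoxc4 and Hoxc6.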

How the data were processed

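ChIP-seq libraries of 5 proteins in 4 conditions were analysed from 60 deposited peak lists. The study's methods state that the authors aligned 76 bp reads to mm10 with BWA in the nf-core ChIP-seq pipeline and called narrow peaks with MACS2 at q under 0.05, separately for each library. Each deposited list gave a summit, a fold enrichment over background, a −log10 p-value, a −log10 q-value and a score equal to 10 times the −log10 q-value for every peak. Apart from the alternative on the log2 fold scale, only the order and thresholds of these values entered the tests.

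The 20000 peaks with the highest fold were kept per library. Gene windows were GENCODE vM21 gene bodies with 5 kb either side. Rank scores were tested with limma 3.58.1 (R 4.3.3), all 12 libraries of a protein sharing 1 estimate of spread, with a threshold of 0.05. Labels call the replicates biological. Members, gene lists and tests were chosen with earlier results of these data known. All 10 genes were named, and the sites printed followed a fixed rule, whereas the minimum of 6 libraries for recurrent sites was chosen after seeing the data. Same-numbered libraries deviated together with all 3 correlations over 0.1 only for TCF7L1 in SOX2-ON and SOX2-OFF (0.233, 0.216 and 0.14), where the replicate block changed no call. Alternatives changed the order, length and threshold of the lists, the windows, the filter, the scale and the libraries in the fit. Sequences were read from GRCm38.p6. The list of regulators of Hox genes is not reported here.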

Additional observations from a re-analysis of the deposited data

Results flagged for a closer look

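The difference between CEpiLC and naive ESC was compared with that between SOX2-OFF and SOX2-ON, by an interaction term in the same limma fit. This test was chosen after seeing the data. Naive ESC and CEpiLC differ in medium, while SOX2-ON and SOX2-OFF were both differentiated, so cell line and type of contrast cannot be told apart. For 8 gene and protein pairs the term passed an adjusted p of 0.05, each with a positive sign. Over all tested genes the term was higher for 7.34% with β-catenin, 5.15% with SOX2, 0.558% with TCF7L1 and 0.253% with TCF7L2. Hoxd9 and Hoxc8 had strong β-catenin peaks in CEpiLC libraries alone, so their terms repeat the CEpiLC difference and had to be positive. Hoxd8 shares the strongest CEpiLC peak of Hoxd9 and apart from CEpiLC had a strong peak in 1 SOX2-ON library. For β-catenin the term was 3.02 ± 0.52 (SE) at Hoxd9 (adjusted p = 0.00334), 3.18 ± 0.54 at Hoxd8 (0.00287), 5.84 ± 1.22 at Hoxd1 (0.00867), 3.84 ± 1.04 at Hoxc10 (0.0296) and 2.09 ± 0.54 at Hoxc8 (0.0236). At Hoxc10 the β-catenin score differed by 2.58 between CEpiLC and naive ESC and by -1.26 between SOX2-OFF and SOX2-ON. For SOX2 the term was 2.33 ± 0.66 at Hoxc4 (0.0498), for TCF7L1 it was 4.82 ± 0.93 at Hoxd1 (0.0133), and for TCF7L2 it was 6.89 ± 1.19 at Hoxc10 (0.0368), where the 2 differences were 2.62 and -4.28, the larger one being that within the TetON line. Groups of 3 libraries are too small for a test of outlying samples.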

How the results depend on the processing

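Of the 39 limma calls on the 10 genes, none reversed under any alternative run, and 476 of 691 checks kept the call. In all, 11 calls passed in each of 6 fits without 1 library. The 6 calls of β-catenin at Hoxd9 and Hoxc8 could be refitted only without libraries that held no peak, which could not end them. The 5 calls that no alternative ended were β-catenin at Hoxd9 (in 3 comparisons) and Hoxd8 (in 2), for which 15 and 17 alternatives could be fitted, against 19 for Hoxc4 and Hoxc6. These are not independent, since the strongest CEpiLC peak was at the same site in both windows. Both genes reached the minimum of 3 libraries only with their CEpiLC libraries. For CEpiLC against naive ESC, 19 of 50 gene and protein pairs were called. That count fell to 12 when the lists of a protein were cut to equal length, 9 with windows of 1 kb either side, 6 with all deposited peaks and 6 on the log2 fold scale. By protein the SOX2 count of 6 became 3 with 10000 peaks or no filter, 2 with 1 kb or log2 fold, and 0 with all peaks. The β-catenin count of 9 became 5 with 50000 peaks, 4 on the log2 fold scale and 3 with equal lengths or all peaks. Those of LEF1 (2), TCF7L1 (1) and TCF7L2 (1) fell to 1 or 0. Without 1 library the counts were 1 to 4 for SOX2, 4 to 9 for β-catenin, 1 to 3 for LEF1 and 0 to 4 for TCF7L2. For SOX2-ON against SOX2-OFF the count of 1 ran from 0 to 2 over the settings and from 0 to 3 without 1 library. For SOX2-OFF against CEpiLC the count of 5 became 2 with all peaks, 3 on the log2 fold scale, 8 with the 6 libraries compared alone and 9 with 10 kb, and was 3 to 7 without 1 library. Its protein counts ran from 0 to 3 for SOX2, 1 to 5 for β-catenin, 0 to 1 for LEF1 and TCF7L1 and 0 to 3 for TCF7L2. For SOX2-ON against CEpiLC the count of 14 became 8 with equal lengths, 1 kb or no filter and 4 with all peaks or log2 fold. Its protein counts ran from 1 to 5 for SOX2, 1 to 6 for β-catenin, 0 to 3 for LEF1, 0 to 1 for TCF7L1 and 0 to 3 for TCF7L2. The causes were not tested.

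Presence in 3 of 3 against 0 of 3 libraries depended on the length of the lists. The 10 pairs for CEpiLC against naive ESC became 2 with 50000 peaks, 1 with all peaks and 0 when absence was required in all deposited peaks. The 10 against SOX2-OFF became 6 with 50000 peaks, 5 with equal lengths and 0 with all peaks, and were 17 when 2 of 3 libraries sufficed. The 7 against SOX2-ON became 12 with 10000 peaks, 2 with 10 kb and 0 with 50000 or all peaks, and were 7 to 11 without 1 library. The 1 pair between SOX2-ON and SOX2-OFF ran from 0 to 3 over list settings and was 7 when 2 of 3 libraries sufficed. By protein, these counts stayed between 0 and 7. Presence in 3 of 3 libraries held for 52 of 200 sets of gene, protein and condition, for 119 with all peaks, 21 with 1 kb and 102 when 2 of 3 libraries sufficed. By condition, the 2 in naive ESC ran from 0 with 10000 peaks through 1 with 1 kb, 4 in p-value order, 11 with 50000 peaks and 17 with 2 of 3 libraries to 33 with all peaks, and from 2 to 8 without 1 library. The 32 in CEpiLC became 17 with 1 kb. The 5 in SOX2-ON became 0 with 1 kb, 8 with 10 kb, 14 with 50000 peaks, 21 with 2 of 3 libraries and 32 with all peaks, and were 5 to 8 without 1 library. The 13 in SOX2-OFF became 3 with 1 kb and 21 with 2 of 3 libraries. In windows of 400 bp, 8 of the 20 recurrent sites held a CDX motif and 5 a T-box motif, against 11% and 26.5% of all sites.

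With a replicate block, the members called for CEpiLC against naive ESC went from 6 to 4 for SOX2 (without Hoxd9 and Hoxc6). For SOX2-ON against CEpiLC they went from 4 to 3 for SOX2, from 3 to 1 for LEF1 and from 1 to 0 for TCF7L1. The Hoxd1 call of TCF7L2 between SOX2-ON and SOX2-OFF was lost, leaving 0. In none of these comparisons were all 3 correlations between same-numbered libraries over 0.1. For TCF7L1 in SOX2-ON and CEpiLC, however, they were 0.19, 0.128 and 0.0533, so some pairing cannot be dismissed there. Removing a CEpiLC library left β-catenin at Hoxd9 and Hoxc8 under the minimum of 3 libraries, so those fits gave no value. Read depth was unknown, and a weak peak missing from a short list cannot be told apart from a lack of binding.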
